A study of Mus musculus with 4 samples.

Results

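The 4 Notch receptor genes (Notch1, Notch2, Notch3 and Notch4), 3 ligand genes (Jag1, Jag2 and Dll1) and 3 target genes (Hes1, Hey1 and Hey2) were followed in mouse embryonic fibroblasts grown sparse or crowded. The members were every probe outside the controls whose gene name on the array was 1 of these 10 symbols, which gave 14 probes of 41174 distinct probes. Notch2 had 3 probes, Notch1 and Jag1 had 2 each, and each of the other genes had 1.

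Notch signalling passes between touching cells. A Jagged or Delta ligand on one cell binds a Notch receptor on its neighbour, the receptor is cut first by an ADAM protease and then by gamma-secretase, and the freed intracellular domain enters the nucleus. There it joins the DNA-binding protein RBPJ and Mastermind coactivators on target genes, of which the Hes and Hey transcriptional repressors are the best known. Notch3 is best known from the mural cells of blood vessels, Notch4 and Dll4 from endothelium, and Jag1, Notch1 and Notch2 from many connective tissue cells. LATS2, the kinase named in the genotype label, belongs to the Hippo pathway, which keeps the coactivators YAP and TAZ out of the nucleus in crowded cells and so limits their partnership with TEAD factors on DNA.

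All cells were embryonic fibroblasts of C57BL/6J mice in serum-containing medium, labelled either Lats2-/- (KO) or wild type (WT). The low density cultures had been grown for 48 h and were subconfluent, and the high density cultures had been grown for 3 to 5 days, so density and time in culture cannot be told apart. High and low density RNA of the same genotype shared an array in 2 colours, and each genotype had 2 arrays with exchanged dyes (replicate 1 carried high density RNA in Cy5, replicate 2 in Cy3). The sources used here do not say how many embryos or cultures stood behind a label, so a dye swap counts here as 1 replicate of each genotype and density.

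A test within a genotype or within a density was therefore not possible. Calls were made by size: a probe was called higher or lower where the mean of its log2 ratios reached 1 (2-fold) and the ratios of both arrays, or of both dyes, had the same sign. A density effect was compared only where the probe exceeded the background limit of the scanner software ("well above background") in both channels of at least 1 density. A genotype difference was compared only where it did so in both channels of at least 1 genotype. The SD over the 2 arrays printed beside a mean covers technical error only. Over all compared probes, the difference between the 2 arrays put the technical SD of a dye swap mean at 0.0987 log2 units for WT and 0.143 for KO.

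In each channel, 52.8% to 67.7% of the features were well above background. All 7 fibroblast markers (Col1a1, Col1a2, Col3a1, Pdgfra, Thy1, Vim and S100a4) were well above background in every group. Some markers differed strongly between the labels: KO minus WT, Pdgfra was higher by 4.46 in sparse and 3.10 in crowded cells, and Nes, from the neural progenitor list, differed by -6.20 and -3.77. Their part in the Notch gene values was not tested. The Lats2 probes went mostly against the genotype label: 3 of 4 read higher on the arrays labelled KO at both densities (by 0.91 to 1.49 log2 units) and 1 read lower (-0.63 at low and -1.26 at high density), so "KO" and "WT" here name the label only. Both WT arrays were scanned on 1 day and the KO arrays on 2, and array and genotype cannot be told apart in the genotype comparisons.

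The probes lay at the following positions of the array annotation, in build mm8; they were not assigned to exons here. The Notch3 probe was at chr17:31849609-31849668 and the Notch4 probe at chr17:34196231-34196290. The Notch1 probes were neighbours, at chr2:26281261-26281319 and chr2:26281319-26281378. The Notch2 probes A_52_P289213, A_52_P448796 and A_51_P216397 were at chr3:98235396-98235455, chr3:98234325-98234384 and chr3:98232687-98232746. The Jag1 probes A_52_P634090 and A_51_P280906 were at chr2:136773138-136773197 and chr2:136774647-136774706, Jag2 at chr12:113356484-113356543 and Dll1 at chr17:15072622-15072681. Of the targets, Hes1 was read at chr16:29985644-29985939, Hey1 at chr3:8646505-8646564 and Hey2 at chr10:30522339-30522398.

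Promoter windows are shown for Hey2 and Notch3 because these were the members whose density effects differed at least 2-fold between the genotypes. The sequences are those of RefSeq on GRCm38.p6, where 8 of the 10 members had a window of 250 bases before and 50 after the start. The letters TGGGAA, the core bound by RBPJ, and GGAATG, the core bound by TEAD factors, were searched on both strands. In the Hey2 run, which is on the minus strand at chr10:30842781-30843033 and ends 3 bases past the start, capitals mark the RBPJ core. In the Notch3 run, on the minus strand at chr17:32166891-32167140, nothing is in capitals because neither core occurred.
Hey2: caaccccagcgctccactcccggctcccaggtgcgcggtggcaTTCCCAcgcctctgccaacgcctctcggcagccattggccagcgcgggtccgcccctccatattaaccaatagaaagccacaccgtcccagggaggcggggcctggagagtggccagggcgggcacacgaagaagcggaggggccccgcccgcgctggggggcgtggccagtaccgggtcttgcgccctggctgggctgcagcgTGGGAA
Notch3: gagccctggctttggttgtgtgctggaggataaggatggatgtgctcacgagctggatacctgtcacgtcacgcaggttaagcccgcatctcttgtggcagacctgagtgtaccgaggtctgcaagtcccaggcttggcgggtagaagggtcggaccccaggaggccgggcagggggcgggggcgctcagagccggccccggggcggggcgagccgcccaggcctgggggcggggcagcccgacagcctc

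Hes1 and Hey1 had no window and were not searched, so Hey2 was the only target gene among the 8. Of these 8 members, only Hey2 had the RBPJ core in its window, at positions -207 to -202 and -3 to 3 counted from the start. The TEAD core occurred in 3 of the 8: once in Hey2, at -209 to -204, where it overlaps the first RBPJ core, once in Notch4 and at 2 places in Notch1. Over all 32851 promoter windows of the same length, 25.6% held the RBPJ core and 14.7% held the TEAD core. A match is a description of the letters and not a bound site.

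In WT cells the receptor gene Notch3 was higher and the target gene Hes1 lower in crowded than in sparse cultures. Of 11 member probes compared, 1 was called higher and 1 lower, against 7.61% of 22591 probes over the whole array called higher, 5.72% called lower and 13.3% called in either direction. In KO cells Hey2 was higher and Hey1 lower. There 1 of 12 member probes was called higher and 1 lower, against 5.9% of 23595 probes called higher, 3.73% lower and 9.62% in either direction. The median density effect of the compared member probes was 0.33 log2 units in WT and 0.08 in KO, beside 0.01 over all probes in both. These are whole cultures, in which fewer cells of a kind and less RNA per cell cannot be told apart.

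**Figure D1:**
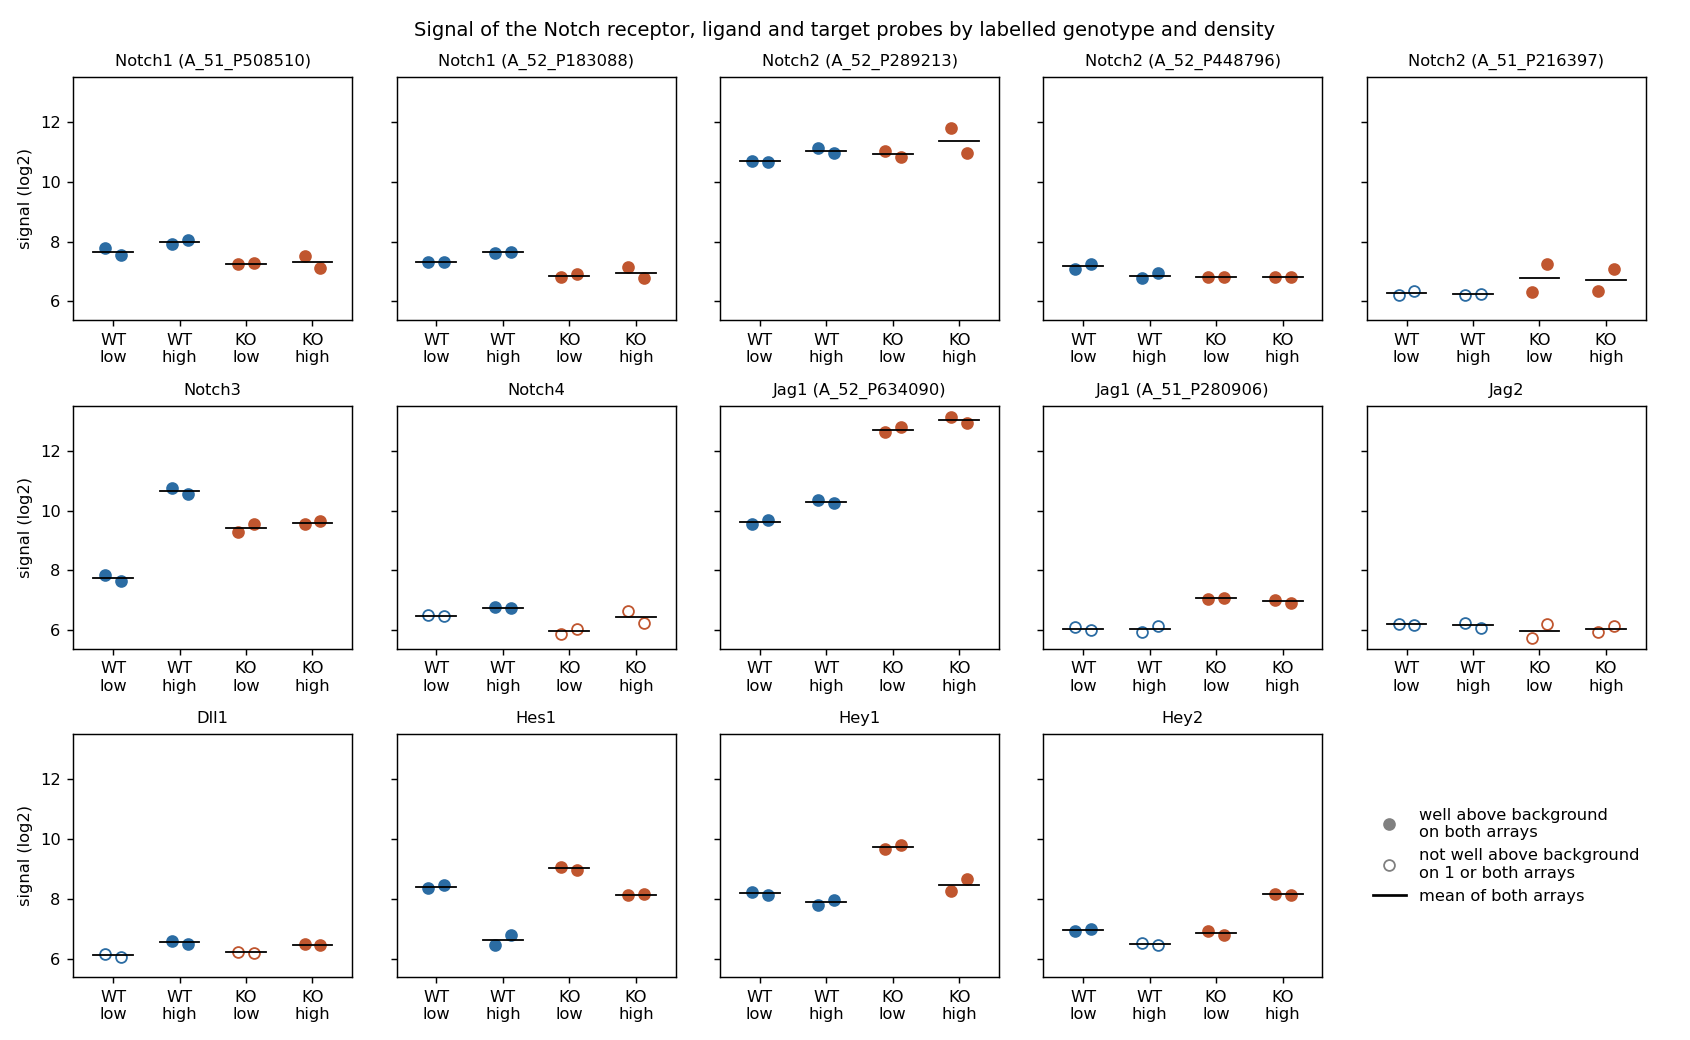
Signal of each member probe (log2 of normalised intensity, y axis) in the low and high density cultures labelled WT and KO (x axis); points are the 2 arrays, lines their mean, open points mark groups not well above background on 1 or both arrays. Notch3 stood between 7.63 and 7.84 in sparse WT cells and between 10.54 and 10.76 in crowded ones, and the bright Jag1 probe read 12.62 or more in every KO channel and 10.34 or less in every WT channel.

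Among the receptors, only Notch3 was called in any comparison. Its log2 signal was 7.84 and 7.63 on the WT arrays at low density and 10.76 and 10.54 at high density. In KO cells the readings were 9.28 and 9.56 at low density and 9.56 and 9.63 at high density. The order was thus sparse WT, sparse KO, crowded KO, crowded WT. Both WT groups lay clear of the others, while the KO groups met at 9.56 and were 0.18 apart in their means.

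The density effect on Notch3 in WT was 2.92 on both arrays, 7.55-fold, and in KO it was 0.28 and 0.08, a mean of 0.18 ± 0.15 (SD over 2 arrays). KO minus WT, the density effects differed by -2.63 and -2.84 in the 2 dye orientations, a mean of -2.74 ± 0.15. The sign of the genotype difference therefore depended on density. At low density Notch3 was higher in KO, by 1.44 and 1.93 in the 2 dyes (mean 1.68 ± 0.35, 3.21-fold), and at high density it was lower in KO, with differences of -1.20 and -0.91 (mean -1.05 ± 0.20, 2.08-fold). This last difference lay close to the 2-fold limit and fell short of it without either replicate 1 array (-0.91 in both cases) and without normalization between arrays (-0.80).

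Notch3 is a mural cell gene in tissue, so the mural list (Rgs5, Des, Myh11, Cspg4, Kcnj8, Abcc9 and Mcam) was read beside it. Des, Kcnj8 and Abcc9 did not exceed background on either array of any group, and of the 7 genes 2 did so on both arrays in sparse WT, 2 in crowded WT, 4 in sparse KO and 3 in crowded KO cells. The log2 of the summed signal of the list, which its brightest genes dominate, ran against Notch3 in WT. It went from 13.66 and 13.72 in sparse to 11.47 and 11.48 in crowded cells. In KO it went from 12.89 and 12.93 to 11.28 and 11.37. Mcam and Cspg4 were called lower with density in both genotypes, with effects of -3.20 and -1.89 in WT. Rgs5, a pericyte gene, was not called in any comparison, and its density effect was 0.31 in WT and -0.22 in KO. The part of mural cells in the Notch3 values was not tested.

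Notch1, the receptor most studied in development, was not called in any comparison. Its probe A_51_P508510 had log2 signals of 7.77 and 7.56 in sparse WT, 7.94 and 8.05 in crowded WT, 7.24 and 7.29 in sparse KO and 7.54 and 7.13 in crowded KO cells. Both KO groups lay below both WT groups, and the neighbouring probe gave the same order. At high density the KO minus WT difference was -0.66 ± 0.37 at one probe and -0.68 ± 0.28 at the other, under the 2-fold limit. The scanner software's own processed signals gave -1.04 and -1.36, which would be called, and at low density -1.04 at the second probe. The density effect in KO had opposite signs on the 2 arrays at both probes.

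The 3 Notch2 probes, all reading 1 transcript accession, did not move together. In WT the density effect was 0.36 ± 0.11 at the brightest probe (A_52_P289213), whose signal was 10.70 and 10.67 in sparse and 11.14 and 10.95 in crowded cells, and -0.31 ± 0.01 at A_52_P448796. In KO these were 0.45 ± 0.44 and 0.01 ± 0.00. The third probe (A_51_P216397) was well above background at both densities only in KO, where its 2 arrays lay far apart (6.32 and 7.26 at low density). In crowded cells, where it was not well above background in WT, its KO minus WT difference was 0.14 in one dye and 0.82 in the other. With processed signals it passed the limit at both densities, over a WT signal well above background on 1 of 2 arrays in sparse and 0 of 2 in crowded cells. No other setting but the 1.4-fold limit called a Notch2 probe.

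Notch4 was dim. It was well above background on both arrays only in crowded WT cells, at log2 signals of 6.76 and 6.75, on 1 of 2 arrays in sparse WT and crowded KO cells, and on neither in sparse KO cells. Its density effect in WT was 0.27 ± 0.01. In crowded cells KO minus WT was -0.33 ± 0.27, and -1.27 with the processed signals, which would be called. Endothelial cells are the usual site of Notch4 expression, and of 6 endothelial markers on the array (Pecam1, Cdh5, Kdr, Tie1, Tek and Emcn), Pecam1, Cdh5, Tie1 and Emcn were not well above background on either array of any group. Kdr was well above background on both arrays in sparse WT cells and in no other group, and Tek on 1 array in crowded KO cells, with its WT replicate 1 reading left out by a flag. The part of endothelial cells in the Notch4 signal was not tested.

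Among the ligands, Jag1 differed by genotype. Its bright probe (A_52_P634090) read 9.53 and 9.68 in sparse WT, 10.34 and 10.25 in crowded WT, 12.62 and 12.78 in sparse KO and 13.14 and 12.93 in crowded KO cells. The KO and WT groups were far apart with no overlap, and within each genotype the crowded cells lay slightly above the sparse ones. KO minus WT, the difference was 3.09 and 3.10 in the 2 dyes at low density (mean 3.09 ± 0.01, 8.54-fold) and 2.80 and 2.68 at high density (mean 2.74 ± 0.08, 6.68-fold).

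The density effect on Jag1 at this probe was below the limit in both genotypes, 0.69 ± 0.17 in WT and 0.33 ± 0.27 in KO, and in KO its sign turned with median centring (-0.11). The dimmer Jag1 probe (A_51_P280906) was well above background in KO only, at 7.03 and 7.09 in sparse and 7.02 and 6.92 in crowded cells, so its fold over WT has only a lower bound. Set against the lowest signal well above background on each WT array, or the probe's own signal where higher, it was at least 1.86-fold higher in KO at low density and at least 1.68-fold at high density. The fold between its measured means was 2.01 at low density, which met the call rule by a margin of 0.01 log2 units and did not with median centring (0.99) or without either replicate 2 array (0.94 in both cases). At high density its difference of 0.94 ± 0.22 was not called, but was without either replicate 2 array. The scanner software's processed signals put both differences past 2-fold, but over a WT signal not well above background, so no fold is read from them.

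Dll1, the Delta ligand of somite formation, was not well above background in sparse cells of either genotype and was so on both arrays in crowded cells of both. In crowded cells its log2 signals were 6.61 and 6.48 in WT and 6.49 and 6.46 in KO. The genotypes overlapped there, with a difference of -0.07 ± 0.07. Set against the higher of the background floor and the probe's own signal in sparse cells, it was at least 1.28-fold higher in crowded WT and at least 1.20-fold higher in crowded KO cells. In KO its own signal was the higher of these. Between measured means the density effect was 0.43 ± 0.02 in WT and 0.27 ± 0.00 in KO. The scanner software's processed signals put it past 2-fold in both, but over a sparse signal not well above background, so only the bounds above are given. The Dll1 probe was spotted at 10 places, of which 1 on WT replicate 1 and 2 on WT replicate 2 carried an outlier flag and were left out. Jag2 was not well above background in any channel, and no fold is given for it.

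**Figure D2:**
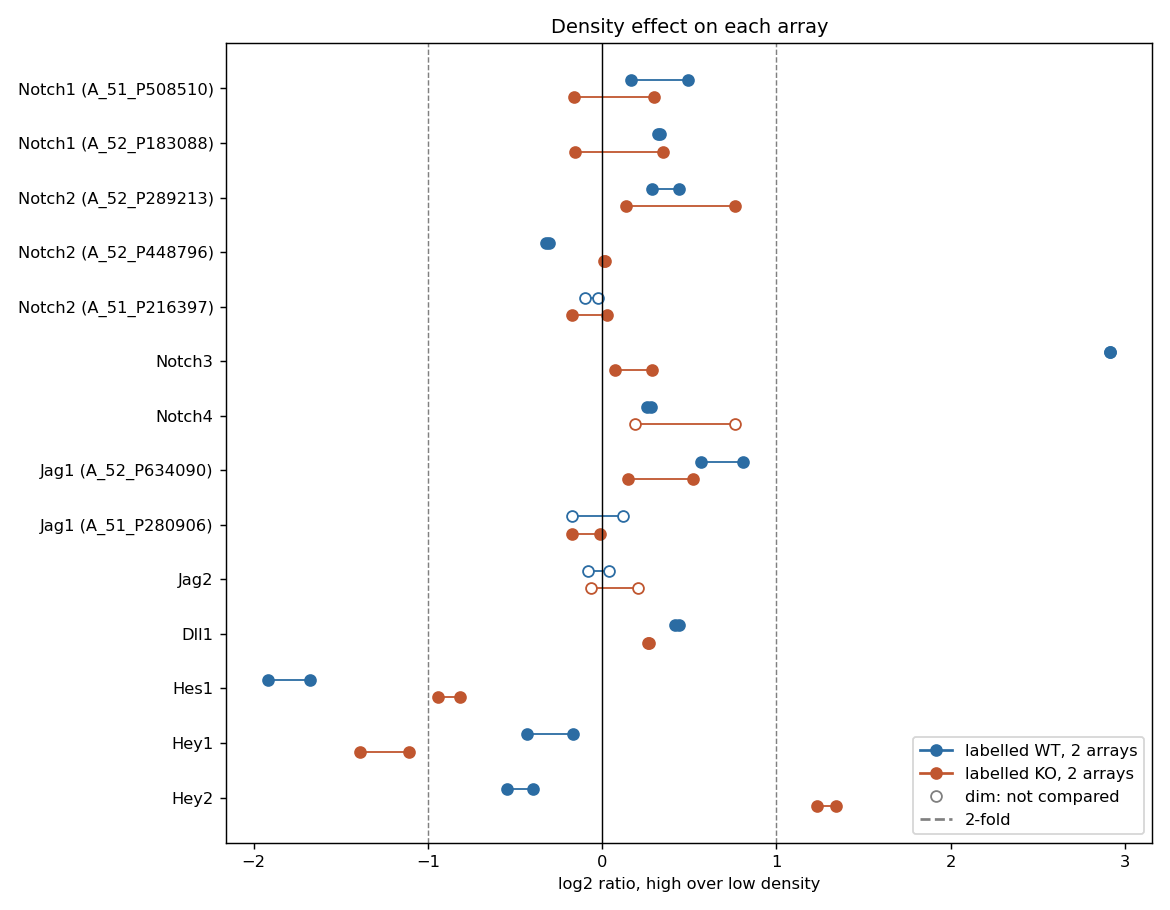
Density effect of each member probe on the 2 arrays of each labelled genotype (x axis, log2 ratio of high over low density; dashed lines at 2-fold; open points mark probes too dim to be compared). Notch3 lies at 2.92 in WT and near 0 in KO, Hes1 and Hey1 lie below 0 on all 4 arrays, and Hey2 lies on opposite sides of 0 in the 2 genotypes.

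The 3 targets are all transcriptional repressors of 1 protein family. Hes1 and Hey1 read lower with density on every array, while Hey2 read higher in KO and lower in WT. Hes1, which opposes differentiation in many progenitor cells, was called lower in crowded WT cells, and in KO its density effect had the same sign but missed the limit. Its log2 signals were 8.36 and 8.46 in sparse WT and 6.44 and 6.78 in crowded WT cells. In KO they were 9.07 and 8.97 in sparse and 8.13 and 8.16 in crowded cells. All 4 groups were separate, in the order crowded WT, crowded KO, sparse WT, sparse KO.

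On the WT arrays the density effect on Hes1 was -1.92 and -1.68 on the 2 arrays (mean -1.80 ± 0.17, 3.47-fold lower). In KO it was -0.94 and -0.82, a mean of -0.88 ± 0.09 that missed the limit. KO minus WT, the density effects differed by 0.92 ± 0.08, also below the limit. Between genotypes Hes1 differed by 0.61 ± 0.14 in sparse cells and by 1.53 ± 0.22 in crowded cells, where it was called higher in KO (2.88-fold). With the scanner software's processed signals the Hes1 density effect was -3.59 (WT) and -1.10 (KO) and their difference 2.49, all of which would be called, and the KO minus WT difference in crowded cells was 3.11. With a background offset of 16 in place of 50 the difference of density effects was 1.41, also a call.

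Hey1, a repressor of the heart and vessels, was lower in crowded KO cells. Its log2 signals in KO were 9.66 and 9.79 at low and 8.27 and 8.68 at high density, and in WT they were 8.24 and 8.15 at low and 7.81 and 7.98 at high density. Sparse KO cells stood above the other 3 groups. The density effect was -1.39 and -1.11 in KO (mean -1.25 ± 0.20, 2.38-fold lower) and -0.43 and -0.17 in WT (mean -0.30 ± 0.19).

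The difference of the Hey1 density effects, KO minus WT, was -0.95 and -0.94 in the 2 dye orientations, just under the limit, and passed it with median centring in place of loess (-1.01). Hey1 was higher in KO at low density, by 1.41 and 1.64 in the 2 dyes (mean 1.53 ± 0.16, 2.89-fold). At high density the difference was 0.58 ± 0.17.

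Hey2, the close relative of Hey1 that also acts in heart and arterial vessels, moved the other way in KO. Its log2 signals there were 6.92 and 6.80 at low and 8.15 at high density on both arrays. In WT they were 6.94 and 6.99 at low and 6.54 and 6.45 at high density, where the probe was well above background on 1 array only. Crowded KO cells stood above the other 3 groups.

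The density effect on Hey2 was 1.23 and 1.34 in KO (mean 1.29 ± 0.08, 2.44-fold higher) and -0.40 and -0.55 in WT (mean -0.47 ± 0.10), so the arrays of the 2 genotypes moved in opposite directions. KO minus WT, the density effects differed by 1.63 and 1.89 (mean 1.76 ± 0.18). The genotypes differed by -0.10 ± 0.12 at low density and by 1.61 and 1.70 at high density, where Hey2 was called higher in KO (mean 1.66 ± 0.06, 3.15-fold). With the scanner software's processed signals Hey2 had density effects of 2.01 (KO) and -1.58 (WT), both past the limit, and a difference of 3.58, and its KO minus WT difference in crowded cells was 3.23. In crowded WT cells the probe exceeded background on 1 of 2 arrays. The 3.15-fold and the processed values that use this group therefore rest partly on a signal near background. The probe entered the crowded genotype comparison through KO only.

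**Figure D3:**
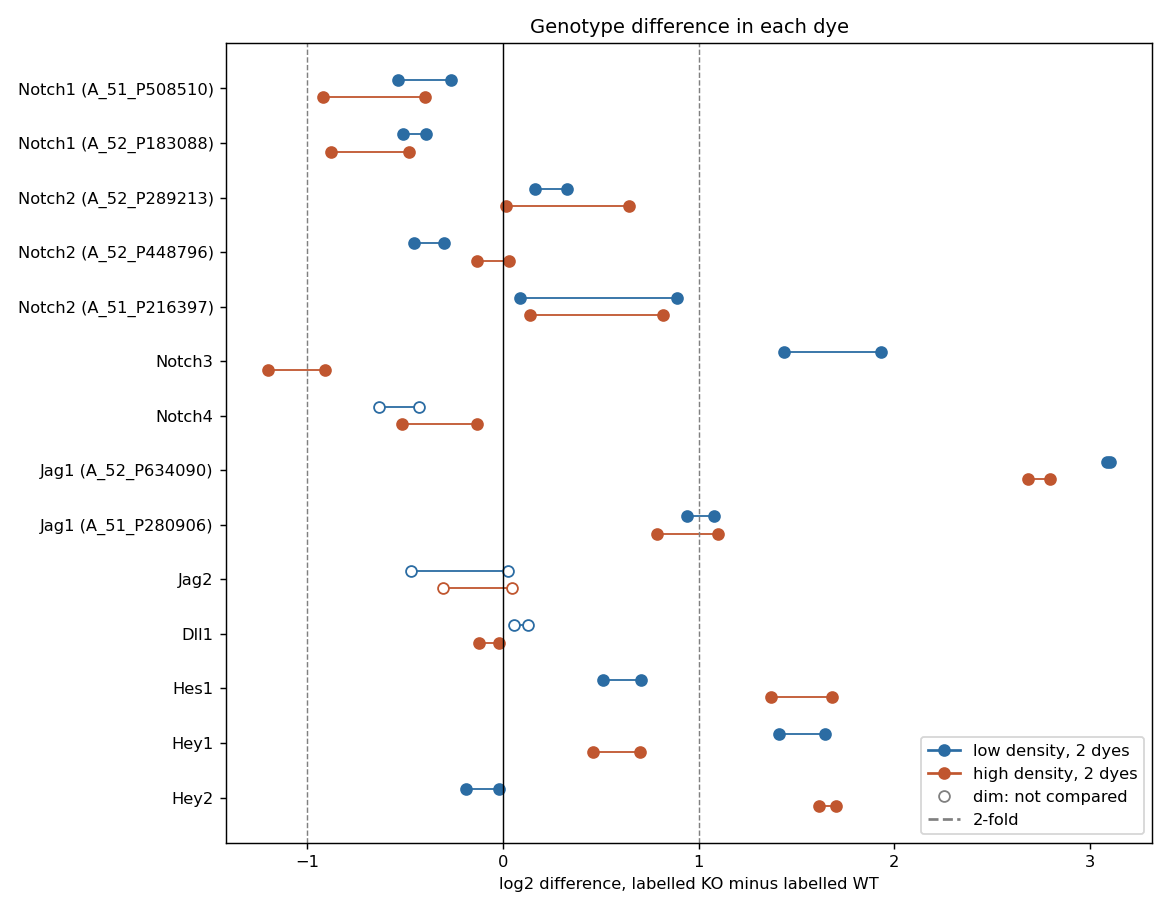
Difference in log2 signal between labelled KO and labelled WT cells in each dye (x axis) at low and at high density for each member probe (dashed lines at 2-fold; open points mark probes too dim to be compared). The bright Jag1 probe lies between 2.68 and 3.10 at both densities, Notch3 changes side between densities, Hey1 passes the limit at low density, and Hes1 and Hey2 pass it at high density.

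Counted over the members, the difference of density effects was called at 2 of 10 compared probes, 1 higher in KO (Hey2) and 1 lower (Notch3). Over the whole array 3.78% of 21545 probes were called higher, 4.22% lower and 8% in either direction. The genotype difference at low density was called at 4 of 11 member probes, all higher in KO (both Jag1 probes, Notch3 and Hey1), where 6.86% of 23339 probes were called higher, 7.07% lower and 13.9% in either direction. The dimmer Jag1 probe among these was compared only through its KO signal, and its bound of 1.86-fold lies under the limit; without it 3 probes remain called. At high density 4 of 13 were called, 3 higher in KO (Jag1, Hes1 and Hey2) and 1 lower (Notch3), where 6.41% of 23617 probes were called higher, 6.62% lower and 13% in either direction. Hey2 was compared there only through its KO signal, since in crowded WT cells it was well above background on 1 of 2 arrays. The genotype comparisons share their arrays with each other and with the density effects, so their counts are not separate evidence.

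The density effect common to both genotypes was the only comparison with a test, since it had 1 value from each genotype. The spread between these values holds any genotype difference, so the SE and p below do not measure replicate error alone. For Notch3 the values were 2.92 in WT and 0.18 in KO. With limma, 0 of 10 member probes passed an adjusted p of 0.05, and over the whole array 0% of 21545 probes did, while 6391 had an unadjusted p under 0.05. Hes1 had the lowest adjusted p of the members by limma, 0.0888, with a common density effect of -1.34 ± 0.28 (SE). Jag1 followed at 0.51 ± 0.18 (limma adjusted p = 0.166), Hey1 at -0.78 ± 0.29 (adjusted p = 0.174), the brightest Notch2 probe at 0.41 ± 0.16 (adjusted p = 0.191) and Notch3 at 1.55 ± 0.70 (adjusted p = 0.232). Treating the 4 arrays as separate values with genotype as a random block gave 5533 probes past the threshold and Hes1 among them (limma adjusted p = 0.00801), a fit in which the 2 arrays of a dye swap count as more than 1 replicate.

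The rest of the pathway was read from a list of 49 genes with 1 probe each, of which 46 were on the array. Their median was 0.10 log2 units for the density effect in WT, 0.16 for that in KO and 0.03 for the difference of density effects, and for genotype it was 0.15 in sparse and 0.03 in crowded cells. The medians over all probes lay between 0.01 and 0.04. With density, 4 of 33 compared genes were called higher and 0 lower in WT, and 3 of 34 were called higher and 1 lower in KO, beside 13.3% and 9.62% of all probes called. The difference of density effects was called at 2 of 33 genes, both higher in KO, beside 8% of all probes. The genotype difference was called at 3 of 33 genes at low density (2 higher, 1 lower) and at 4 of 34 at high density (3 higher, 1 lower), beside 13.9% and 13% of all probes. Neither Rbpj, the DNA-binding partner of the Notch intracellular domain, nor the coactivators Maml1 and Maml2 were called; Rbpj had a density effect of 0.16 in WT and 0.30 in KO.

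Among the other ligands and ligand-like genes, Dll3 and Dll4 were not well above background in any group, and Dlk1 gave the largest values of the list. Dlk1 encodes a membrane protein related to the Delta ligands that lacks their receptor-binding domain and restrains adipocyte formation. Its density effect was 2.44 and 2.35 in WT (mean 2.39 ± 0.06) and 3.98 and 3.45 in KO (mean 3.72 ± 0.38). KO minus WT, it was higher by 4.37 ± 0.61 at low and by 5.70 ± 0.30 at high density. Its relative Dlk2 went the other way in KO, with a density effect of -1.46 ± 0.02.

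For density in WT, 1 of 3 genes of ligand endocytosis and 1 of 8 genes of receptor cleavage were called, beside 13.3% of all probes. Psen2, a catalytic subunit of gamma-secretase, was higher in crowded WT cells by 1.28 ± 0.04, and Mib2, a ubiquitin ligase that drives ligand endocytosis, by 1.13 ± 0.08. Between genotypes, 2 of 8 receptor cleavage genes were called at each density, beside 13.9% (low) and 13% (high) of all probes. Adam17, a protease that sheds membrane proteins, was higher in KO by 1.03 ± 0.01 at low and 1.45 ± 0.08 at high density. Aph1a, another gamma-secretase subunit, was lower in KO at both densities, with differences of -1.33 ± 0.08 and -1.24 ± 0.23.

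Pofut1, which adds the O-fucose that ligand binding needs, was higher in KO at high density (1.25 ± 0.04) and had a difference of density effects of 1.06 ± 0.08. Of the Deltex genes, linked to receptor turnover, Dtx3 was higher with density in WT (1.08 ± 0.19) and in KO (1.05 ± 0.06), and Dtx4 in KO (1.21 ± 0.03). No other Hes or Hey gene was called. In no group did Hes3, Hes5, Hes7 or Heyl exceed background on both arrays, and Hes6, which was bright in all of them, had a density effect of 0.63 in WT and 0.33 in KO.

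**Figure D4:**
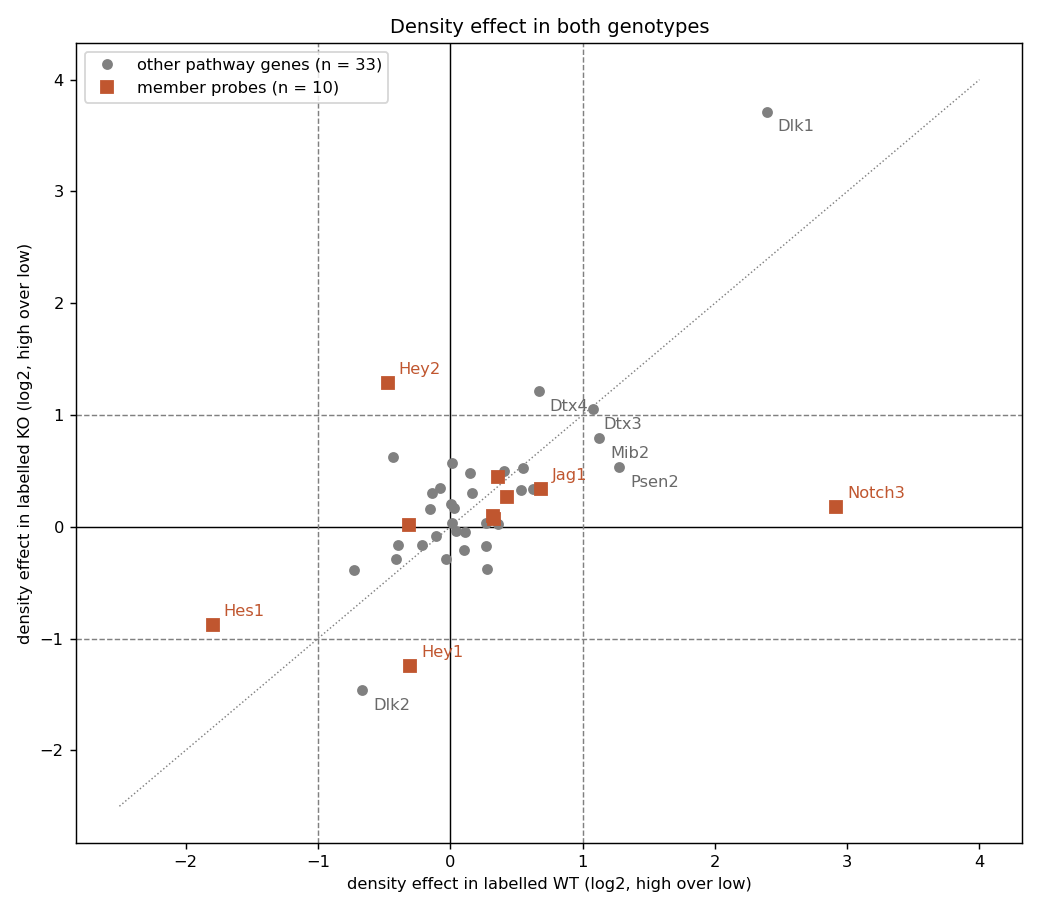
Density effect in labelled WT cells (x axis) against that in labelled KO cells (y axis), both as log2 of high over low density, for the 10 member probes (squares) and 33 other pathway genes (circles) compared in both; dashed lines mark 2-fold and the dotted line equal effects. Dlk1 lies high in both genotypes, while Notch3 lies near 0 in KO and Hey2 on opposite sides of 0.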

How the data were processed

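RNA of fibroblasts labelled KO or WT was measured on 4 two-colour arrays, 2 per genotype. Per the file headers, the authors extracted them with Agilent Feature Extraction (10.5.1.1 in their notes), and the deposited scanner files hold intensity per feature and channel, its local background, processed signals and a log10 ratio. The deposited series matrix holds the same log10 ratio, with swapped arrays turned.

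From the intensities, R 4.3.3 and limma 3.58.1 gave normexp background correction (offset 50, which shrinks ratios of dim probes) and loess within arrays. Genotype comparisons added Aquantile. Controls and features with outlier flags (107 to 224 per array) were left out and features of a probe averaged; 0 were saturated. Calls needed a 2-fold mean and agreement in sign between arrays, or between dyes. The common density effect used lmFit and eBayes on 2 genotype means (1 residual degree of freedom) with Benjamini-Hochberg adjustment over all probes. The fit was tested on simulated data. Summaries used Python 3.11.15 with numpy 2.4.6 and pandas 2.3.3.

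All member probes are named; of the other pathway genes, counts and the 5 largest called per comparison, at the brightest probe, with a few more named after their values were seen. The members and lists were chosen with earlier results of these data known. One gene of the pathway list is not reported here.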

Additional observations from a re-analysis of the deposited data

Results flagged for a closer look

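Some features moved one way on both WT arrays and the other way on both KO arrays when high was set over low density. In each case the difference was not tested, since a genotype had 1 replicate per density. Over all probes compared in both genotypes, 3115 (14.5%) did the same.

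Among the members this was seen for Hey2, with -0.40 and -0.55 in WT and 1.23 and 1.34 in KO, a difference of 1.76, and for the Notch2 probe A_52_P448796, with -0.32 and -0.31 in WT and 0.01 and 0.02 in KO, a difference of 0.33 that rests on KO values close to 0. Of the other pathway genes it was seen for 5 of 33, among them Pofut1 (difference 1.06) and Adam17 (0.42), which were named for a call.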

How the results depend on the processing

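Of 757 member values under another setting, 644 were counted as unchanged and 112 moved by their SD or more. The test's threshold was passed by 1, and 0 called values changed sign. The 644 do not measure stability. For the common density effect, unchanged means only that the call stayed the same. In the other comparisons, leaving out an array could not move a value past its SD. A changed limit or filter left the value itself as it was. Without 1 array the members called stayed within 1.5 times their number, although single calls at the limit changed as given above.

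With a 1.4-fold limit the probes called numbered 8578 (density, WT; 38% of those compared), 8168 (density, KO; 34.6%), 6125 (difference of density effects; 28.4%), 9395 (genotype, low density; 40.3%) and 8877 (genotype, high density; 37.6%), and the member probes called were 3 of 11, 3 of 12, 4 of 10, 6 of 11 and 8 of 13. The scanner software's processed signals, which carry no added offset, gave 5829, 4866, 3149, 6305 and 5882 probes (25.8%, 20.6%, 14.6%, 27% and 24.9%). The member probes called were 4, 4, 4, 6 and 9. Among these, Dll1, Notch4, the dim Jag1 probe and the dimmest Notch2 probe rest on a group not well above background on 1 or both arrays. So does Hey2 wherever crowded WT cells enter. The series matrix gave 5824, 4858 and 3147 probes and 4 members in each of the density comparisons. Asking for signal well above background in every channel left 1 of 8 member probes called for the difference of density effects and 3 of 9 for genotype at high density, since Hey2 was then no longer compared, and 3 of 9 at low density, without the dim Jag1 probe.

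For the density effect common to both genotypes, 0 probes passed in the limma fit, 3 with median centring, 133 with an intensity trend, 195 with the stricter filter, 287 with processed signals, 317 with the series matrix, 350 with an offset of 16, and 0 to 150 without 1 array (150 without KO replicate 1). In these fits 0 members passed; with the 4 arrays as separate values in a random block 5533 probes and 1 member (Hes1) did. Except where stated, the cause of these shifts was not tested. Signals near background limit what can be said of Jag2, Notch4, Dll1, Hey2 in crowded WT cells and the dim Jag1 and Notch2 probes.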
